A study of Mus musculus with 22 samples.

Results

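LSK cells that had lost P53 alone were compared with wild-type LSK cells by RNA sequencing. LSK cells are sorted from mouse bone marrow as cells without lineage markers that carry both Sca-1 and Kit, a gate that holds hematopoietic stem cells and multipotent progenitors. The comparison rests on 6 of the 12 RNA libraries of the series, namely all 3 libraries labelled P53-/- (P53 KO) and all 3 labelled WT. For a second measurement of P53 loss in other libraries, 3 libraries labelled Chd8-/-P53-/- (DKO) were set against 3 labelled Chd8-/- (Chd8 KO). All groups, WT included, are labelled C57BL/6, with injection of pI:pC to start deletion and harvest 6 days after it, and the cells were not cultured. The labels do not name the Cre driver, the deleted exons or the age of the mice, and they do not say whether the WT mice carried Cre. Nor do they say that replicates came from separate mice, so p-values below reflect only how far these samples scatter, and that scatter may be technical.

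P53, encoded by Trp53, is a transcription factor that damaged or stressed cells use to stop dividing or to die. It acts by binding a pair of 10-base half-sites near its target genes, among them Cdkn1a, which encodes the cell cycle inhibitor p21, and Mdm2, which encodes the ubiquitin ligase that removes P53. In blood stem cells P53 is known to hold cells in quiescence and to limit expansion after injury, and its level in unstressed cells is kept low by MDM2.

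Values are TPM per gene, summed over the gene's transcripts, and are given in the order of replicates 1, 2 and 3. Differences are in log2(TPM + 1) ± SE from limma, positive where P53 KO was higher, and this scale understates the change of genes with low TPM. Genes count as called where the adjusted p was under 0.05 (limma, Benjamini-Hochberg over 13162 genes). TPM carries no read depth, so no counting error can be given, and 12438 to 13236 genes reached 1 TPM per library. In bulk RNA, fewer cells of a type and less RNA per cell cannot be told apart.

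The P53 KO libraries were not made alike. Replicates 1 and 2 carry another run number (119) than replicate 3 and the 9 libraries of the other groups (88). Mitochondrially encoded genes took 2.12%, 1.90% and 5.60% of TPM in P53 KO, against 5.33%, 6.97% and 5.52% in WT. Replicate 3 lay inside the WT range and the pair of run 119 lay far below it. Summed over 4 genes of the Y chromosome, the level was 0.738, 50.1 and 1.35 TPM in P53 KO, against 126, 113 and 1.16 TPM in WT, so both groups held libraries with and without Y-linked transcripts. In DKO this sum was 1.909, 2.031 and 1.805 TPM, against 94.2, 106 and 116 TPM in Chd8 KO. P53 genotype and Y-linked level thus cannot be told apart in DKO against Chd8 KO. Kit, the receptor that defines the gate, stood at 222, 266 and 252 TPM in P53 KO, against 268, 202 and 255 TPM in WT, and its difference was 0.04 ± 0.16 (adjusted p = 0.943). Ly6a, which encodes Sca-1, stood at 84.96, 89.3 and 87.6 TPM in P53 KO, against 122, 98.4 and 225 TPM in WT (-0.67 ± 0.30, adjusted p = 0.342). Both genes that name the gate were thus present in all 6 libraries.

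In P53 KO against WT, 24 genes passed the test, or 0.182% of the 13162 tested. Of these, 10 were higher (0.076%) and 14 lower (0.106%) in P53 KO, and 22 differed by at least 1 log2 unit. With quantile normalization the calls were 14 higher and 13 lower. In every one of the 24 genes all 3 P53 KO libraries lay outside the range of the 3 WT libraries, as they did in 1713 of the 13162 genes tested, and a gene picked by this test nearly has to do so. At an unadjusted p under 0.05 there were 737 higher genes (5.60%) and 1194 lower genes (9.07%). Without P53 KO replicate 3 the count rose to 1253, with 418 higher and 835 lower, and all 24 genes were among them. Replicate 3 lay beyond the WT range on the same side for 457 of those 1253 genes (36.5%), inside it for 570 and beyond it on the other side for 226. Run and genotype cannot be told apart for replicates 1 and 2. Since run 119 holds P53 KO libraries only, a fit with the run as a covariate and a fit on the 10 libraries of run 88 both set replicate 3 alone against WT, with its spread assumed to be that of the other groups. They called 18 and 21 genes, of which 13 and 12 were among the 24. In both fits 11 of the 24 lost their call, namely Ang, Gm6472, Ighv1-12, Igkv4-55, Il2rb, Mtmr9, Nat8f1, Pars2, Rec8, Rpgrip1 and Ttc4, with adjusted p of 0.0873 (Rec8) to 0.392 (Nat8f1) under the covariate. Their differences kept their direction and much of their size while the SEs grew, as for Il2rb at -1.38 ± 0.25, against -1.34 ± 0.17 over all libraries, and Nat8f1 at 0.91 ± 0.23, against 1.05 ± 0.16. Mcpt2 lost its call in run 88 only (adjusted p = 0.0601), at -5.34.

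**Figure D1:**
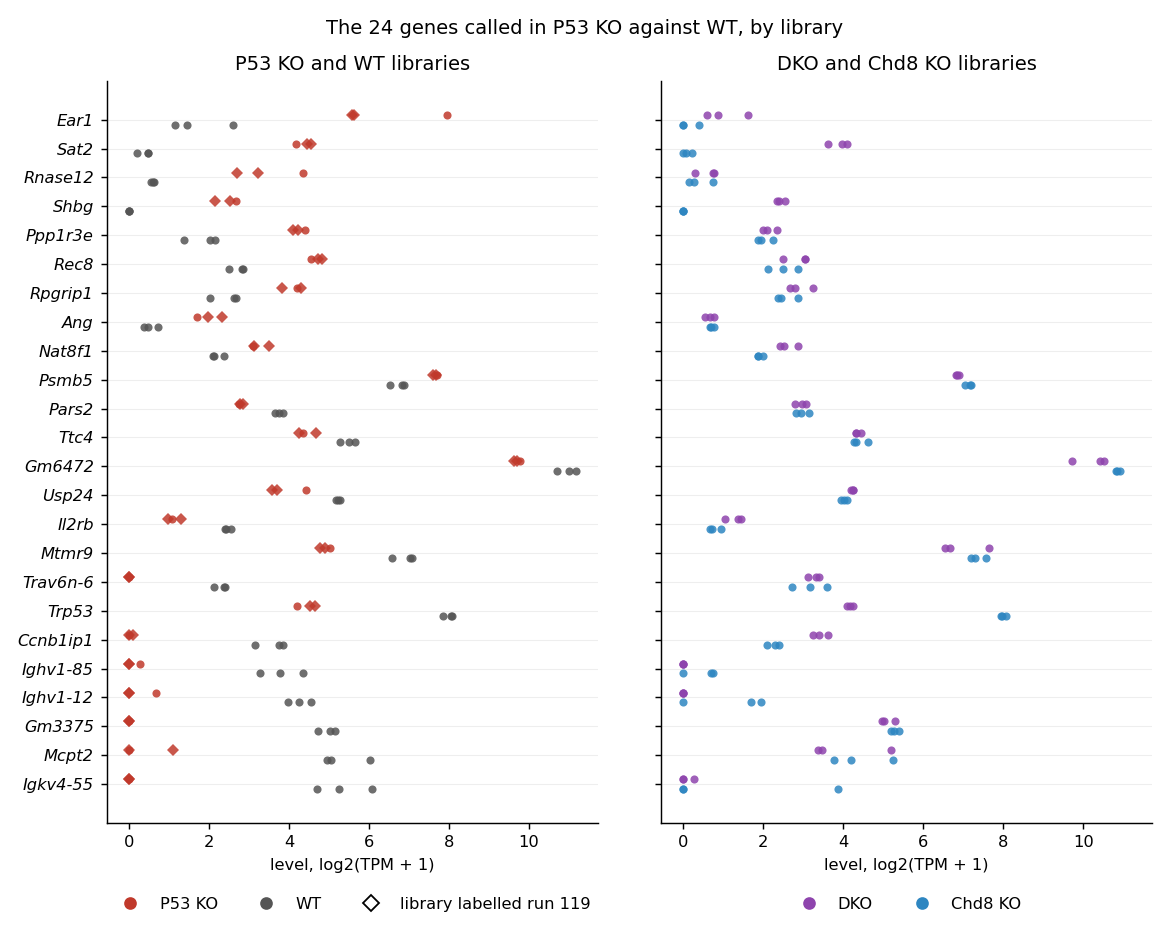
Levels of the 24 called genes in each library, in log2(TPM + 1), with 1 point per library. P53 KO and WT stand in the left panel, and DKO and Chd8 KO in the right panel, with diamonds for the 2 libraries of run 119. P53 KO and WT points are apart in every row on the left. On the right some rows overlap and others do not, among them Trp53, Sat2, Shbg, Nat8f1, Gm6472 and Ccnb1ip1.

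The 24 genes fell into 3 patterns by which libraries stood apart. In 5 genes, Trp53, Sat2, Shbg, Nat8f1 and Gm6472, the P53 KO and DKO libraries together lay outside the range of all WT and Chd8 KO libraries. In 12 genes, 11 of them on chromosome 14 and the other Gm3375, the P53 KO libraries alone lay outside the range of the other 9 libraries. In 7 genes the WT libraries alone lay outside the range of the other 9, so P53 KO there lay among or near DKO and Chd8 KO. These were Usp24, Pars2, Ttc4, Il2rb, Ighv1-12, Ighv1-85 and Igkv4-55.

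The deleted gene itself fell in every P53 KO library. Trp53 (chromosome 11, 69580348 to 69591873, GRCm38) stood at 24.3, 22.0 and 17.5 TPM in P53 KO, against 268, 264 and 229.5 TPM in WT. It fell by 3.52 ± 0.11 on the log2 scale (adjusted p = 3.51e-08). All 3 P53 KO libraries kept a low remainder, and the WT libraries were close to each other.

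The remainder came mostly from a single annotated transcript. Of the 6 Trp53 transcripts in the tables, ENSMUST00000171247.7 stood at 16.1, 18.8 and 11.9 TPM in P53 KO and under 1e-06 TPM in each WT library. It made up 66.3%, 85.4% and 67.9% of the Trp53 signal in P53 KO. In DKO it made up 90.3%, 73.7% and 77.8% of the signal, and in Chd8 KO it was again under 1e-06 TPM. The transcripts that carry the gene in WT were much lower, to unequal degrees. ENSMUST00000005371.11 stood at 8.10, 0.536 and 0.0978 TPM in P53 KO, against 166, 139 and 129 TPM in WT. ENSMUST00000108658.9 was listed at 0 in each P53 KO library, against 68.1, 89.0 and 57.0 TPM in WT. ENSMUST00000108657.3 kept more, with 3.53e-08, 2.59 and 5.53 TPM in P53 KO, against 22.8, 30.1 and 30.3 TPM in WT. How the tables' maker divided reads between overlapping transcripts is unknown from the sources used here, and these splits are estimates.

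A pair of neighbouring genes downstream of Trp53 was present in P53 KO and at or near 0 in WT. Sat2, a member of the polyamine acetyltransferase family, starts at 69621996, 41648 bases from the start of Trp53. It stood at 20.7, 22.4 and 17.1 TPM in P53 KO, against 0.383, 0.148 and 0.384 TPM in WT, and rose by 4.01 ± 0.17 (adjusted p = 5.71e-07). Shbg, which encodes sex hormone-binding globulin, lies between them at 69610282 to 69618026. Its level was 3.46, 4.78 and 5.39 TPM in P53 KO and it was listed at 0 in each WT library (adjusted p = 5.79e-05). Its 2 transcripts and 2 of the 3 of Sat2 were above the WT range in every P53 KO library. The main Sat2 transcript, ENSMUST00000092969.1, had 16.2, 13.6 and 9.80 TPM in P53 KO, against 0.297, 0 and 0.334 TPM in WT.

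Sat2 and Shbg stand on opposite strands head to head, 3970 bases apart in the annotation, so the 250 bases before each annotated start are shown (RefSeq, GRCm38.p6, 5′ to 3′ along each gene's strand). Sat2 is read from chr11:69621802-69622051 on the plus strand and Shbg from chr11:69617906-69618155 on the minus strand. Capitals mark ATTGG, the reverse of a CCAAT box, and 33.9% of all promoter windows of this length hold the box on either strand.
Sat2: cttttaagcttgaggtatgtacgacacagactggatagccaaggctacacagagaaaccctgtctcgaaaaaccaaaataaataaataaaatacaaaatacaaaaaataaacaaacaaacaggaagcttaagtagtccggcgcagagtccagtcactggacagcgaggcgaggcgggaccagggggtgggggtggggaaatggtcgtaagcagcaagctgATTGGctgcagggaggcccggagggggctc
Shbg: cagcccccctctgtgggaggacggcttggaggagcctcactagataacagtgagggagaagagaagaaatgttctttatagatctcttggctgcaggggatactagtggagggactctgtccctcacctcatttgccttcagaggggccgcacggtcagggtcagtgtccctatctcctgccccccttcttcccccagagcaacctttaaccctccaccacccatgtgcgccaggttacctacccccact
Sat2 holds 1 such box near its start and the Shbg window holds none. A match is a description of the letters only.

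**Figure D2:**
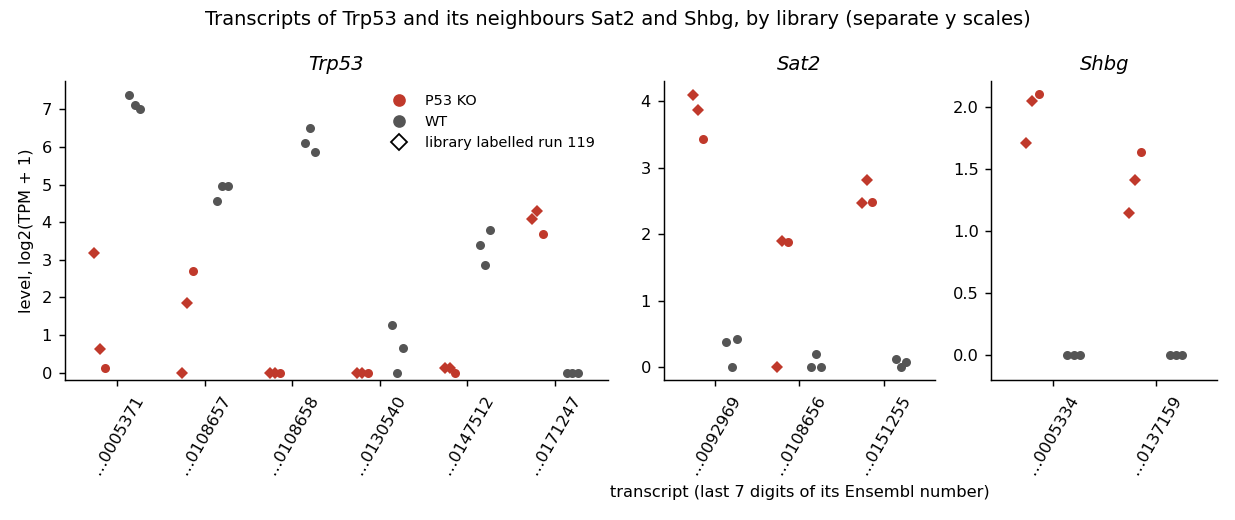
Level of each annotated transcript of Trp53, Sat2 and Shbg in log2(TPM + 1), with 1 point per library, P53 KO left of WT in each pair and diamonds for run 119. The transcripts that carry Trp53 in WT are low in P53 KO, where ENSMUST00000171247.7 stands at 16.1, 18.8 and 11.9 TPM, and the Shbg transcripts are above 0 in P53 KO and at 0 in WT.

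The rest of the neighbourhood did not pass the test. Of the 10 tested genes that start within 100 kb of Trp53, the 7 others were not called. Wrap53, the antisense partner that overlaps the start of Trp53, stood at 20.1, 23.3 and 20.1 TPM in P53 KO, against 23.8, 22.5 and 23.3 TPM in WT (-0.13 ± 0.08, adjusted p = 0.486). Since strand-specific counting is not stated, reads of Wrap53 and Trp53 cannot be told apart where they overlap. The translation factor gene Eif4a1 and the SUMO protease gene Senp3 had lower values in all 3 P53 KO libraries, at -0.12 ± 0.07 (adjusted p = 0.448) and -0.35 ± 0.13 (adjusted p = 0.265). Atp1b2, which encodes a sodium pump subunit and starts between Trp53 and Shbg, overlapped between groups, with 8.43, 11.1 and 32.2 TPM in P53 KO, against 43.2, 47.0 and 24.9 TPM in WT. Its difference was -1.29 ± 0.51 (adjusted p = 0.295).

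The largest cluster of calls lay on chromosome 14, around the gene that this comparison leaves intact. Chd8 (chromosome 14, 52198151 to 52258042) stood at 53.1, 69.4 and 63.7 TPM in P53 KO, against 67.4, 48.2 and 73.9 TPM in WT (adjusted p = 0.987, 95% interval of the difference -0.40 to 0.38). Yet 11 of the 24 called genes start within 15 Mb of it, 7 of them higher and 4 lower in P53 KO. That is 5.56% of the 198 genes tested in the window, against 0.104% of the 12498 genes elsewhere with a position. At an unadjusted p under 0.05 the shares were 29.8% inside and 14.3% outside. In DKO against Chd8 KO the called share was 11.1% inside that window and 10.7% outside it. Around Trp53 the window of the same width held 3 calls among 352 genes (0.852%), and these were Trp53, Sat2 and Shbg. The chromosome 14 calls run from Ear1, 8.38 Mb on one side of Chd8, to Mtmr9, 11.3 Mb on the other.

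**Figure D3:**
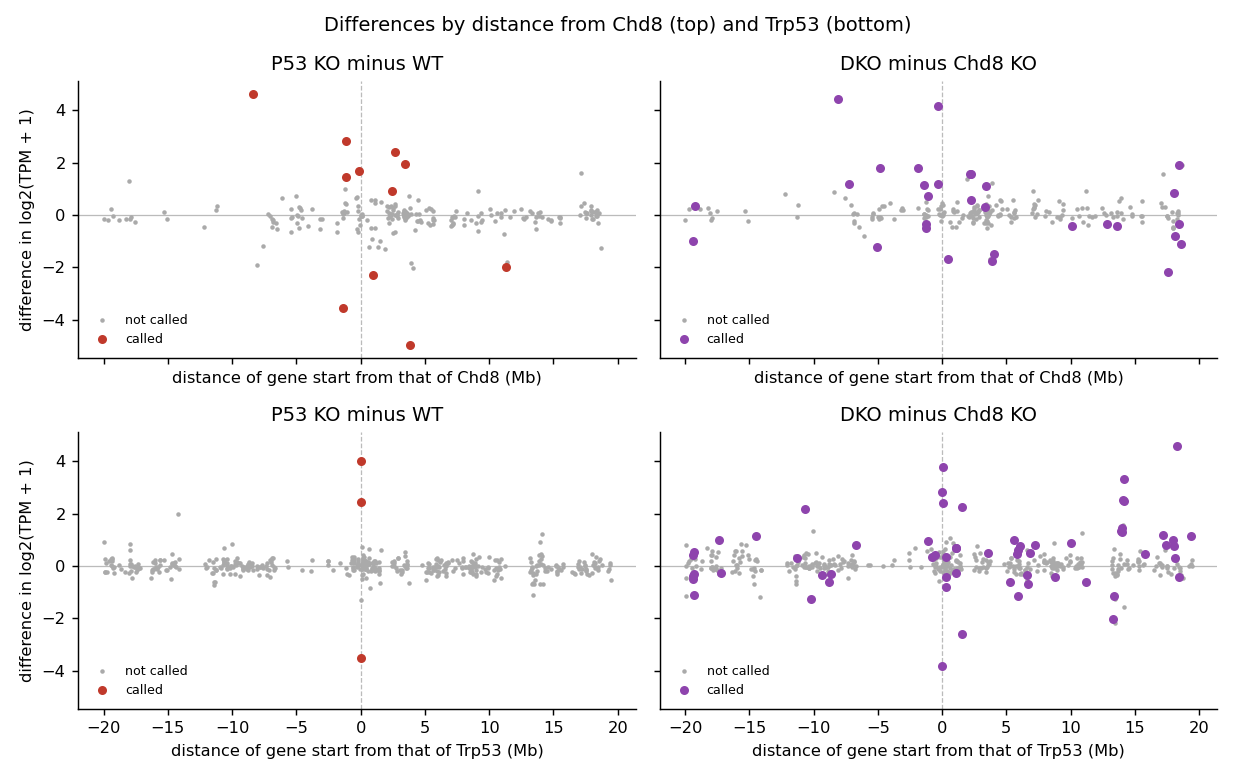
Difference in log2(TPM + 1) against the distance of each gene's start from the start of Chd8 (top) or Trp53 (bottom), in Mb. P53 KO minus WT is on the left and DKO minus Chd8 KO on the right, with called genes as large points. On the left, 11 called genes surround Chd8 in both directions and 3 sit at Trp53.

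Several of the chromosome 14 genes are secreted ribonucleases or proteases. Ear1, an eosinophil-associated ribonuclease gene, stood at 48.1, 46.7 and 246 TPM in P53 KO, against 1.74, 1.23 and 5.08 TPM in WT (4.64 ± 0.60, adjusted p = 0.0076). Its close paralog Ear2 did not share that direction, with 35.2, 36.2 and 234 TPM in P53 KO, against 132, 386 and 314 TPM in WT (adjusted p = 0.333). Reads of such near-identical copies may be divided unevenly. Rnase12, of the same ribonuclease superfamily, had 8.30, 5.56 and 19.4 TPM in P53 KO, against 0.455, 0.509 and 0.552 TPM in WT (2.84 ± 0.36, adjusted p = 0.00751). Ang, which encodes the ribonuclease angiogenin, rose by 1.47 ± 0.20 (adjusted p = 0.0114). In a fit on P53 KO and WT only, Ear1, Rnase12 and Ang were no longer called (adjusted p of 0.117, 0.0910 and 0.157). Mcpt2, a mast cell protease gene, was listed at 0 in P53 KO replicates 1 and 3 and at 1.16 TPM in replicate 2, against 30.0, 64.0 and 32.3 TPM in WT (adjusted p = 0.0027). The ribonuclease genes were higher and the protease gene lower, with no overlap in any of the 4 called genes.

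The 7 other chromosome 14 genes have varied roles. Ccnb1ip1, a ubiquitin ligase gene of meiotic crossing-over, was listed at 0, 0.0702 and 0 TPM in P53 KO, against 13.5, 12.4 and 7.84 TPM in WT (adjusted p = 6.47e-06). Rec8, a cohesin subunit of meiosis, had 25.5, 27.2 and 22.3 TPM in P53 KO, against 6.26, 4.66 and 6.12 TPM in WT (1.96 ± 0.21, adjusted p = 0.00216). One lost nearly all of its signal and the other gained. Psmb5, the chymotrypsin-like subunit of the proteasome, had 202, 193 and 208 TPM in P53 KO, against 113, 116 and 91.4 TPM in WT (0.91 ± 0.09, adjusted p = 0.000957). Ppp1r3e, a glycogen-targeting subunit of protein phosphatase 1, had 16.1, 17.6 and 20.2 TPM in P53 KO, against 3.43, 3.05 and 1.58 TPM in WT (2.395 ± 0.21, adjusted p = 0.000393). Neither gene overlapped between the groups. Rpgrip1, a gene of the photoreceptor cilium, rose by 1.67 ± 0.23 (adjusted p = 0.0118) and starts 0.0939 Mb before Chd8. Mtmr9, a phosphoinositide phosphatase family gene, had 26.6, 28.9 and 31.8 TPM in P53 KO, against 128.5, 94.3 and 134 TPM in WT (-1.98 ± 0.25, adjusted p = 0.00751). Trav6n-6, a T cell receptor segment, was listed at 0 in all 3 P53 KO libraries, against 3.35, 4.32 and 4.16 TPM in WT. Among these 11 genes, Ccnb1ip1, Psmb5, Ppp1r3e and Trav6n-6 were called under all 21 alternatives run for single genes. Single libraries decided others. Ear1 had an adjusted p of 0.053 and Mtmr9 of 0.050 without WT replicate 1, Rpgrip1 of 0.086 without P53 KO replicate 2, and Ang of 0.057 to 0.070 without any of 4 libraries (P53 KO replicates 1 and 2, WT replicates 1 and 2).

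On chromosome 4, 3 genes close to each other fell in P53 KO. Usp24, which encodes a deubiquitinase, had 10.9, 11.98 and 20.5 TPM in P53 KO, against 37.7, 35.1 and 36.2 TPM in WT (-1.32 ± 0.18, adjusted p = 0.0106). Pars2, the mitochondrial prolyl-tRNA synthetase, had 5.88, 6.20 and 5.72 TPM in P53 KO, against 13.5, 11.6 and 12.4 TPM in WT (-0.96 ± 0.12, adjusted p = 0.00751). Ttc4, an HSP90 co-chaperone gene, fell by 1.05 ± 0.14 (adjusted p = 0.00984). These 3 genes span 106315980 to 106679002 on chromosome 4. Without WT replicate 1 all 3 calls were lost, at adjusted p of 0.062 for Usp24, 0.056 for Pars2 and 0.061 for Ttc4. A fit on P53 KO and WT only lost all 3 as well, at adjusted p of 0.183, 0.0910 and 0.112. Without P53 KO replicate 2 the call of Usp24 was lost too (0.069), as was that of Ttc4 without P53 KO replicate 1 (0.052).

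Lymphoid transcripts accounted for 4 more falls. Il2rb, the shared receptor chain for interleukin 2 and 15 on T and NK cells, had 0.966, 1.45 and 1.12 TPM in P53 KO, against 4.36, 4.31 and 4.88 TPM in WT (-1.34 ± 0.17, adjusted p = 0.00751). Without WT replicate 1 its adjusted p was 0.050. The immunoglobulin segments Ighv1-85 (0, 0 and 0.219 TPM in P53 KO, against 8.63, 12.7 and 19.3 TPM in WT), Ighv1-12 and Igkv4-55 fell as well, with adjusted p of 0.00014, 0.00216 and 0.031. The last lost its call without any 1 of 5 libraries, P53 KO replicate 3 being the exception (adjusted p of 0.072 to 0.134). The constant region gene Igkc, named after its values were seen, had 320.1, 806 and 1185 TPM in P53 KO, against 3124.5, 2846 and 1873 TPM in WT (adjusted p = 0.307). Segment levels may follow few clones, since each segment is expressed only in cells that rearranged it, and the part of such cells in these falls was not tested.

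A further 3 genes lay elsewhere. Gm3375 on chromosome 7, a predicted gene, was listed at 0 in all P53 KO libraries, against 34.4, 31.3 and 25.4 TPM in WT and 30.1 to 40.9 TPM in DKO and Chd8 KO (adjusted p = 1.03e-08). Nat8f1, an acetyltransferase gene, rose by 1.05 ± 0.16 (adjusted p = 0.031), a call that was lost without any 1 of the 6 libraries except P53 KO replicate 3 (adjusted p of 0.062 to 0.149). Gm6472, a processed copy of the ribosomal protein gene Rps7, had 832, 786 and 881 TPM in P53 KO, against 1668, 2053 and 2304 TPM in WT (-1.26 ± 0.19, adjusted p = 0.0225). The parent gene Rps7 stood the other way without passing the test, with 2298, 1975 and 1842 TPM in P53 KO, against 960, 851 and 337 TPM in WT (1.64 ± 0.33, adjusted p = 0.132). Their sum was 3130, 2761 and 2722 TPM in P53 KO, against 2627, 2904 and 2641 TPM in WT, and here the groups overlapped. The fall of Gm6472 was lost without P53 KO replicate 1 or 2, or without WT replicate 2 or 3 (adjusted p of 0.091 to 0.125).

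None of the known P53 targets passed the test. The lists held 70 such genes in the tables, of which 67 were tested, and 0 were called by limma. At an unadjusted p under 0.05, 2 were higher (2.99%, against 5.60% of all genes) and 8 lower (11.9%, against 9.07%). Their median difference was -0.10, against -0.03 over all genes, and single genes ranged from -0.97 to 0.78. The median lay at -0.24, 0.07 and -0.12 in P53 KO replicates 1, 2 and 3 when each was set against the WT mean. By role, the medians were -0.13 for 7 genes that regulate P53 itself, -0.07 for 10 of cell cycle arrest, -0.18 for 17 of cell death, -0.03 for 13 of metabolism and repair, and -0.07 for 20 others. Some of these medians depend on single libraries. With 1 library left out the cell cycle arrest median ranged from -0.20 to 0.17, the cell death median from -0.30 to -0.05 and the metabolism and repair median from -0.08 to 0.06. In replicates 1, 2 and 3 the cell cycle arrest median was -0.32, 0.22 and -0.08.

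The classic members overlapped between the groups. Cdkn1a had 7.01, 19.6 and 12.5 TPM in P53 KO, against 14.3, 12.8 and 13.9 TPM in WT, with a 95% interval of the difference from -0.86 to 0.53. For Mdm2, with 45.2, 58.9 and 40.7 TPM in P53 KO, against 40.5, 35.4 and 49.4 TPM in WT, the interval ran from -0.14 to 0.54. Bax, the pore-forming cell death gene, had 76.1, 80.1 and 68.9 TPM in P53 KO, against 87.9, 84.7 and 79.1 TPM in WT (-0.39 to 0.07). The intervals of the BH3-only genes Bbc3 (PUMA) and Pmaip1 (NOXA) were -0.10 to 0.54 and -1.17 to 0.54. All 5 intervals include 0, and that of Bax reaches down to a fall of 0.39. These intervals hold only under the model, and run and genotype cannot be told apart for 2 of the P53 KO libraries.

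A smaller group of targets was lower in all 3 P53 KO libraries without reaching the threshold. Ccng1, which encodes the MDM2-activating cyclin G1, had 19.8, 21.8 and 29.1 TPM in P53 KO, against 35.4, 39.5 and 34.1 TPM in WT (-0.62 ± 0.14, adjusted p = 0.186). Without P53 KO replicate 3 it passed, at -0.78 (adjusted p = 0.0054). That fit called 1253 of the 13162 genes and left only run 119 libraries in P53 KO, so run and genotype cannot be told apart there. Aen, an apoptosis-enhancing nuclease gene, had 37.7, 37.0 and 40.5 TPM in P53 KO, against 49.6, 57.8 and 45.4 TPM in WT (-0.39 ± 0.09, adjusted p = 0.197). Zmat3, an RNA-binding splicing regulator, had 1.37, 1.23 and 1.36 TPM in P53 KO, against 3.48, 3.52 and 1.67 TPM in WT (-0.70 ± 0.21, adjusted p = 0.228). The death receptor gene Eda2r, the ligand gene Tnfsf4 and the thiamine transporter gene Slc19a2 also lay below WT in every library. Their differences were -0.53 ± 0.19, -0.73 ± 0.18 and -0.56 ± 0.15, with adjusted p of 0.262, 0.213 and 0.217. Phlda3, an AKT inhibitor gene, overlapped by 1 library, with 2.58, 1.86 and 1.54 TPM in P53 KO, against 5.41, 5.55 and 2.39 TPM in WT (adjusted p = 0.238). In the other direction, the mTOR inhibitor gene Ddit4 had 16.8, 16.2 and 16.0 TPM in P53 KO, against 10.2, 8.13 and 9.08 TPM in WT (0.78 ± 0.14, adjusted p = 0.0821). In all, 8 targets lay below WT without overlap (11.9%, against 7.55% of all genes) and 4 above it (5.97%, against 5.46%).

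**Figure D4:**
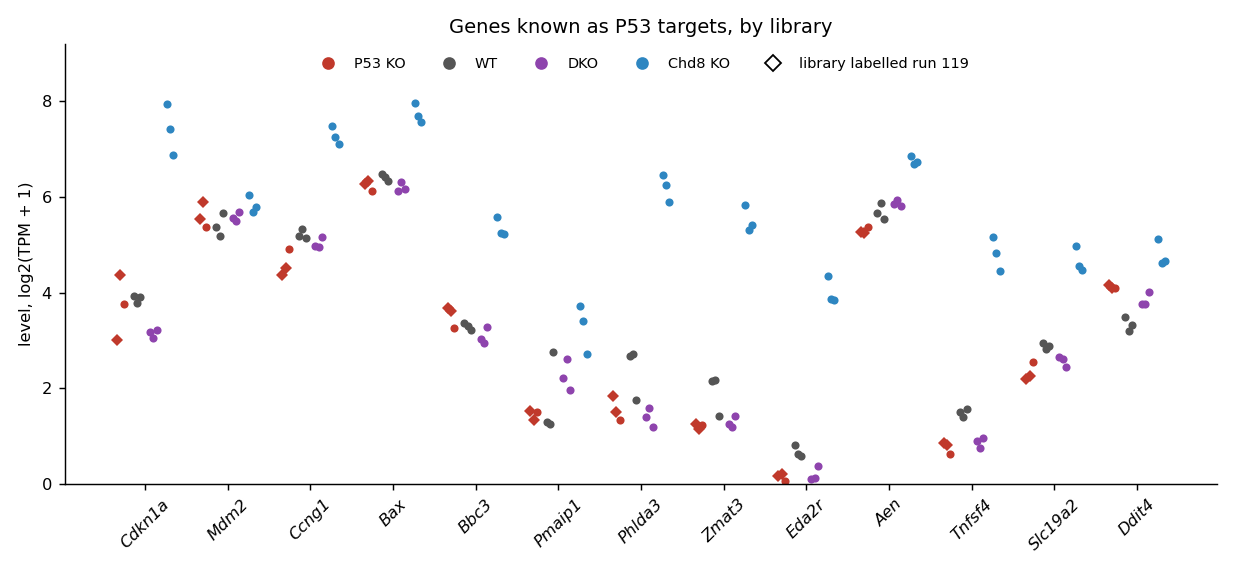
Levels of 13 known P53 targets in log2(TPM + 1), with 1 point per library, for P53 KO, WT, DKO and Chd8 KO from left to right and diamonds for run 119. Points of P53 KO and WT mix for Cdkn1a, Mdm2 and Pmaip1, lie lower in P53 KO for Ccng1, Aen, Zmat3, Eda2r, Tnfsf4 and Slc19a2, and lie higher for Ddit4.

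Some of these targets hold letters that match the P53 response element close to their start, and they are shown because P53 is known to act through such elements. P53 binding was not measured here. The search used the p53 response element consensus, a pair of half-sites at most 1 base apart with each CNNG core holding only A or T at its N positions and at most 2 mismatches elsewhere. It reads the same way on both strands. The windows ran from 250 bases before to 50 after each start, and 6 of 75 windows of the tested targets (8%) held a match, against 105 of 32851 windows of all genes (0.320%). The matches are given 5′ to 3′ along the gene's strand, with the core of each half-site in capitals.
Cdkn1a: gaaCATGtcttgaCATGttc
Rps27l: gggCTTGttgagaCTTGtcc
Gtse1: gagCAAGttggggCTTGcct
Bax: aggCAAGctttgaaCTTGcgg
Ckap2: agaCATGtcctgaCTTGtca
Zfp365: agaCTAGgctgggCAAGact
They lie at chr17:29090928-29090947 (plus strand) for Cdkn1a, at chr9:66946296-66946315 (plus) for Rps27l, at chr15:85859945-85859964 (plus) for Gtse1, at chr7:45467079-45467099 (minus) for Bax, at chr8:22186003-22186022 (minus) for Ckap2 and at chr10:67912706-67912725 (minus) for Zfp365 (GRCm38.p6). The Cdkn1a site begins 51 bases before the annotated start of one of its transcripts, with 1 mismatch, and its 250 bases upstream (chr17:29090729-29090978) show it in place in capitals.
Cdkn1a upstream: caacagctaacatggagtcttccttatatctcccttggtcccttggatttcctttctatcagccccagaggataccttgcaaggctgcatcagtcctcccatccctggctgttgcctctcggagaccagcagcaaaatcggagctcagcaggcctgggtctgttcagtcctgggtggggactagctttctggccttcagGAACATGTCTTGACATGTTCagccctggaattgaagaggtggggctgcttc
None of the 6 genes was called in P53 KO against WT. Rps27l, a ribosomal protein paralog, had 310, 266 and 309 TPM in P53 KO, against 333, 352 and 280 TPM in WT (-0.12 ± 0.12, adjusted p = 0.669). Gtse1, which carries P53 out of the nucleus, had 19.6, 21.7 and 25.0 TPM in P53 KO, against 22.3, 25.4 and 26.8 TPM in WT (-0.16 ± 0.16, adjusted p = 0.67). The libraries of the 2 groups overlapped for both.

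P53 loss in cells that also lacked Chd8 went with far more calls in this list. Among the 67 tested targets, 32 were lower and 2 higher in DKO against Chd8 KO, a comparison that called 10.5% of all genes and 4.21% as lower. The test of the difference between the 2 P53 effects called 24 of the 67 (35.8%), against 1.8% of all genes. It uses the DKO and Chd8 KO libraries, which also differed in Y-linked level. Of the 6 genes with a site, Cdkn1a, Bax, Rps27l, Gtse1 and Zfp365 were among those 24, and Ckap2 was not (adjusted p = 0.291). Cdkn1a stood at 8.10, 7.33 and 8.36 TPM in DKO, against 244, 171 and 116 TPM in Chd8 KO. Its fall there exceeded that in P53 KO against WT by 4.09 ± 0.45 on the log2 scale (adjusted p = 0.00108). The 9 libraries of P53 KO, WT and DKO were all at 19.6 TPM or below, and the 3 of Chd8 KO at 116 TPM or above.

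The 24 called genes themselves behaved differently in that second comparison. Only 4 of them, Trp53, Sat2, Shbg and Nat8f1, were called in the same direction in DKO against Chd8 KO. Trp53 stood at 17.1, 16.1 and 18.1 TPM in DKO, against 268, 244 and 252 TPM in Chd8 KO (-3.82 ± 0.11, adjusted p = 5.93e-09). Sat2 stood at 14.5, 11.3 and 16.2 TPM in DKO, against 0.162, 0 and 0.051 TPM in Chd8 KO (3.80 ± 0.17, adjusted p = 3.8e-07). Ccnb1ip1 was called in the opposite direction, with 9.61, 8.41 and 11.3 TPM in DKO, against 3.92, 4.29 and 3.27 TPM in Chd8 KO (1.16 ± 0.19, adjusted p = 0.0053). For 15 of the 24 genes the test of the difference between the 2 P53 effects passed, a count that the choice of these genes by one side of that difference raises. These included 8 of the 11 chromosome 14 genes, with Ear1, Rpgrip1 and Mtmr9 as the exceptions, and all 3 called genes of chromosome 4.

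S phase genes lay slightly lower in P53 KO without any call, and the other cell cycle lists differed between libraries. Of 28 S phase genes 0 were called, 10 were lower and 0 higher at an unadjusted p under 0.05, and the median was -0.18. Over all genes 9.07% were lower and 5.60% higher at that threshold, with a median of -0.03. Pola1, the catalytic subunit of DNA polymerase alpha, had 31.6, 41.3 and 46.4 TPM in P53 KO, against 51.8, 53.1 and 52.8 TPM in WT (-0.41 ± 0.12, adjusted p = 0.224). Pcna, the replication clamp, had 350.3, 457 and 449.6 TPM in P53 KO, against 479.6, 509 and 514 TPM in WT (-0.27 ± 0.10, adjusted p = 0.268). In the sum of all 28 genes, P53 KO had 3338, 3991 and 3763 TPM and WT had 4034, 4107 and 4090 TPM (exact permutation p = 0.1, the smallest that 3 against 3 can give, and 0.525 adjusted over 42 library measures). Among the 16 genes known to be repressed through p21 and the DREAM complex, whose release would be a rise, 0 were called. There 3 were lower and 0 higher at an unadjusted p under 0.05, and 3 lay above and 3 below WT without overlap, with a median of -0.09. Of all genes, 5.46% lay above and 7.55% below WT without overlap. Bub1, a spindle checkpoint kinase gene, was the lowest of the DREAM list at -0.63 ± 0.18 (adjusted p = 0.219). G2 and mitosis genes had a median of -0.07 over 21 and DNA repair genes one of -0.09 over 30, with 0 called in both. The libraries disagreed, with G2 and mitosis medians of -0.25, -0.09 and 0.06 in replicates 1, 2 and 3. Replicate 3 had 8 of these genes above the WT range and 0 below, against 2406 and 3727 of the 13162 tested. The DNA repair medians were -0.32, 0.03 and -0.08, and those of the DREAM list -0.24, 0.00064 and -0.03.

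Ribosomal protein genes stood slightly higher in P53 KO, nearly all of them together. Of 79 tested, 0 were called, and 57 (72.2%) were higher and 0 lower before adjustment (p under 0.05). In all 3 P53 KO libraries 50 (63.3%) lay above WT. Over all genes these shares were 5.60% higher and 9.07% lower before adjustment, and 5.46% above WT. The median difference of the 79 was 0.24. The ribosomal protein share of TPM was 23.2%, 20.8% and 20.3% in P53 KO, against 18.6%, 18.2% and 16.7% in WT, with no overlap (exact permutation p = 0.1, the smallest possible, and 0.525 adjusted over the 42 measures). Replicate 3, of the same run as WT, had 63 of the 79 genes above the WT range, and 2406 of all 13162. Its median was 0.17, and replicates 1 and 2 had medians of 0.34 and 0.18. In DKO against Chd8 KO the median was 0.016, with 4 of the 79 called higher and 0 lower. That comparison called 832 of the 13162 genes higher and 554 lower. The ribosomal protein share of TPM there was 16.2%, 16.5% and 16.8% in DKO, against 15.5%, 16.5% and 15.7% in Chd8 KO. Rpl13, of the large subunit, had 3398, 2952 and 2759 TPM in P53 KO, against 2275, 2139 and 2169 TPM in WT (0.46 ± 0.08, adjusted p = 0.0699). Genes that build ribosomes leaned the other way, with 0 called and a median of -0.19. At an unadjusted p under 0.05, 13 of 32 were lower and 1 higher, against 9.07% and 5.60% of all genes. Nat10, an RNA acetyltransferase of the nucleolus, had 43.9, 53.04 and 59.2 TPM in P53 KO, against 72.0, 69.1 and 67.9 TPM in WT (-0.42 ± 0.12, adjusted p = 0.22).

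Mitochondrially encoded genes were low in the 2 P53 KO libraries of run 119. All 13 were lower at an unadjusted p under 0.05 and 0 were called, with a median of -0.92. In each of the 13, replicates 1 and 2 lay below the WT range, and replicate 3 lay below it in 2. Replicate 3 alone gave a median of -0.09. mt-Co3, a cytochrome oxidase subunit, had 1201, 1054 and 7572 TPM in P53 KO, against 7289, 8421 and 6949 TPM in WT. Of the 41 nuclear oxidative phosphorylation genes 7 were higher and 2 lower before adjustment (p under 0.05), with a median of 0.02. Over all genes 5.60% were higher and 9.07% lower at that threshold.

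**Figure D5:**
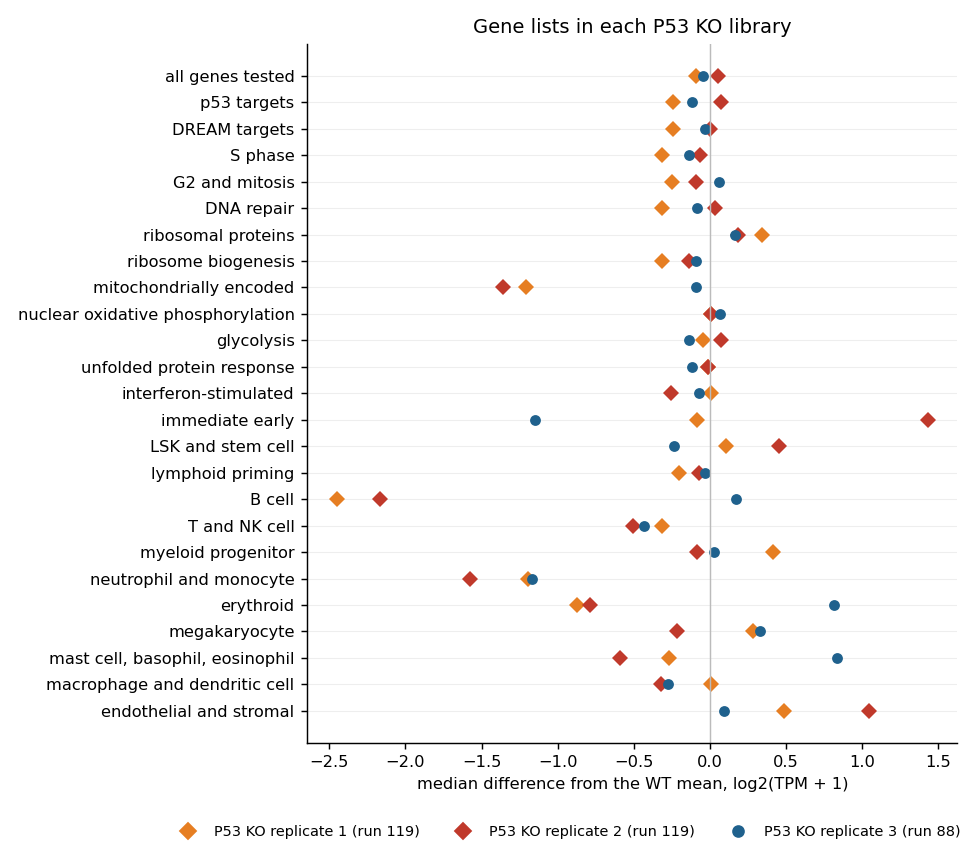
Median difference of each gene list in each P53 KO library from the mean of the 3 WT libraries, in log2(TPM + 1), with diamonds for the 2 libraries of run 119. The 3 libraries lie together for ribosomal proteins (0.17 to 0.34) and apart for mitochondrially encoded, B cell, erythroid and immediate early genes.

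Markers of other blood cells differed widely between single P53 KO libraries. B cell genes had a median of -1.45 over 14, with 0 called, but the libraries gave -2.45, -2.17 and 0.17. Cd79a, a B cell receptor component, had 3.13, 4.67 and 44.0 TPM in P53 KO, against 52.3, 28.7 and 67.9 TPM in WT. Erythroid genes gave -0.87, -0.79 and 0.81 in the 3 P53 KO libraries, and immediate early genes, which sorting can induce, gave -0.08, 1.43 and -1.15. Mature neutrophil and monocyte genes had a median of -1.45, which was -0.29 without WT replicate 3. S100a8, a neutrophil alarmin gene, stood at 2.43, 3.83 and 4.24 TPM in P53 KO, against 16.3, 4.31 and 253 TPM in WT (adjusted p = 0.305).

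Lists of T and NK cells, macrophages and vessels each held genes without overlap, where 5.46% of all genes were higher and 7.55% lower without overlap. Of 12 tested T and NK cell genes 1 was called (Il2rb) and 5 were below WT in all 3 P53 KO libraries, among them the NK receptor gene Ncr1 (-1.29 ± 0.23, adjusted p = 0.075) and the granzyme gene Gzmb (-2.02 ± 0.42, adjusted p = 0.16). The chemokine gene Xcl1, chosen after its values were seen, had 0.732, 1.15 and 0.577 TPM in P53 KO, against 2.90, 2.80 and 4.79 TPM in WT. In the macrophage and dendritic cell list of 20, the complement genes C1qa, C1qb and C1qc and the mannose receptor gene Mrc1 lay above WT, and 7 genes below it. C1qa had 6.19, 4.501 and 2.28 TPM in P53 KO, against 0.749, 1.18 and 1.12 TPM in WT (1.34 ± 0.30, adjusted p = 0.186). The MHC class II gene H2-Ab1 had 113, 97.3 and 124 TPM in P53 KO, against 172, 173 and 179.8 TPM in WT (-0.66 ± 0.29, adjusted p = 0.337). The summed list was 430.2, 391.7 and 512 TPM in P53 KO, against 738, 726 and 852 TPM in WT (exact permutation p = 0.1). Endothelial and stromal genes had a median of 0.32 over 11, with 0.49, 1.04 and 0.09 in replicates 1, 2 and 3, and it was 0.84 without P53 KO replicate 3. In replicate 3, 4 of the 11 lay above and 4 below the WT range, where 2406 and 3727 of the 13162 genes tested did. Cxcl12, the niche chemokine gene, stood at 7.35, 20.3 and 8.26 TPM in P53 KO, against 5.35, 2.15 and 0.83 TPM in WT (1.83 ± 0.56, adjusted p = 0.234). Replicate 2 was highest for it and for the matrix gene Sparc, at 34.5 TPM. How far such cells contribute to the differences of other genes was not tested.

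Further large differences without overlap missed the threshold. Ifi44l, an interferon-induced gene, was listed at 0, 0.0389 and 0 TPM in P53 KO, against 20.7, 10.3 and 82.7 TPM in WT (adjusted p = 0.2). Fabp4, a fatty acid-binding protein gene, had 8.60, 26.3 and 4.00 TPM in P53 KO, against 1.37, 0.632 and 0.243 TPM in WT (2.70 ± 0.62, adjusted p = 0.186). Thbs1, which encodes thrombospondin 1, had 31.3, 3.21 and 4.13 TPM in P53 KO, against 0.433, 1.11 and 2.07 TPM in WT (2.08 ± 0.64, adjusted p = 0.234). The zinc finger gene Zfp968 (1.81 ± 0.49) was also higher in every P53 KO library, and Rbpsuh-rs3, Usf2-ps1, Ngp and Camp lower in every one. For those 5 genes the adjusted p ranged from 0.186 to 0.345. Of the 43 interferon-stimulated genes in the list, 0 were called and 4 (9.30%) were lower at an unadjusted p under 0.05, near the 9.07% of all genes.

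Stem cell identity genes held no call, and the P53 KO libraries went different ways. Of 33 tested genes of the LSK gate and stem cells 0 were called, with medians of 0.10, 0.45 and -0.24 in replicates 1, 2 and 3 and 0.07 overall. In replicate 2, 21 of the 33 lay above the WT range, as did 4677 of the 13162 genes tested. In replicate 3, 18 of the 33 lay below it, as did 3727 of the 13162. The overall median ranged from -0.09 to 0.29 with single libraries left out. Txnip, a redox regulator gene, had 275, 294 and 315 TPM in P53 KO, against 228, 159.8 and 224 TPM in WT (0.55 ± 0.16, adjusted p = 0.223). Slamf1, which encodes the stem cell marker CD150, had 4.09, 5.33 and 4.83 TPM in P53 KO, against 5.88, 7.78 and 5.97 TPM in WT (-0.39 ± 0.17, adjusted p = 0.32). Cd34 had 647, 617 and 414 TPM in P53 KO, against 474, 411 and 469 TPM in WT (adjusted p = 0.438). Only Slamf1 and Txnip of these 3 were without overlap. In the whole list 1 gene lay above and 3 below WT without overlap, where 5.46% and 7.55% of all genes did.

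Some single transcripts were called in genes whose sums were not called. Of 38181 transcripts tested, 40 were called (0.105%), 17 higher and 23 lower, and 15 of them belong to 15 genes that were not called. ENSMUST00000193647.5 of Mbnl1, a splicing regulator, had 28.4, 13.9 and 8.71 TPM in P53 KO and at most 7.37e-06 TPM in any WT library. ENSMUST00000192523.5 of the acetyltransferase subunit gene Naa15 was listed at 0, 0 and 0.0794 TPM in P53 KO, against 4.85, 5.85 and 3.85 TPM in WT. ENSMUST00000146297.7 of the splicing factor gene Rbm39 had 8.46, 8.95 and 5.55 TPM in P53 KO, against 68.0, 33.1 and 101 TPM in WT. ENSMUST00000190729.1 of Ak6, an adenylate kinase gene, had 19.2, 25.5 and 19.02 TPM in P53 KO, against 59.0, 101 and 59.1 TPM in WT. In each of these 4 transcripts the 2 groups were far apart. Of the 15, only ENSMUST00000108241.7 of Utp6 was also called in DKO against Chd8 KO, and in the opposite direction, at -1.19 there (adjusted p = 0.0303) and 1.77 in P53 KO against WT. Without P53 KO replicate 3 the transcript count was 3044.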

How the data were processed

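RNA of sorted LSK cells was extracted with Trizol and sequenced, and the authors deposited 1 table per library with TPM (transcript abundance scaled to a fixed library total) for each transcript. Per the submitters' processing notes, reads of the series were handled with Trim Galore 0.4.2, STAR 2.6.1e and featureCounts 1.6.2 on GRCm38. Which tool made the TPM values is unknown from the sources used here. Since TPM has the same total in each library, depth is unknown and a rise of abundant genes lowers all others.

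From these tables, TPM was summed over the transcripts of a gene, and genes that averaged 1 TPM or more across the 12 libraries were tested on log2(TPM + 1). A model of 4 group means with 8 residual degrees of freedom was fitted with limma 3.58.1 (R 4.3.3, moderated variance with a trend), with Benjamini-Hochberg adjustment over all genes. The effect of P53 loss was P53 KO minus WT, and the difference of effects was DKO minus Chd8 KO less P53 KO minus WT. Library shares and sums were compared by exact two-sided permutation tests over 20 splits. Positions and sequences are RefSeq's for GRCm38.p6, and 12696 of 13162 tested genes matched. Run numbers come from the table names.

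Genes were named if called, or if on a fixed list (Trp53, Chd8, Sat2, Kit, Ly6a and 9 P53 targets). Also named were those among the 6 largest uncalled differences in each direction without overlap and at least 5 TPM, up to 4 list members with the smallest p or a defining role, genes within 100 kb of Trp53, and up to 8 transcripts. Some genes that this rule names are not reported here. The members and lists were chosen with earlier results of these data known. Alternatives covered the pseudocount, filter, scaling, model, covariates and single libraries.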

Additional observations from a re-analysis of the deposited data

Results flagged for a closer look

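In these genes the effect of P53 loss differed between the 2 pairs of groups by a test of the difference itself (limma, adjusted p under 0.05), given as DKO minus Chd8 KO less P53 KO minus WT in log2(TPM + 1). On chromosome 14 the difference was 4.70 for Ccnb1ip1, 4.59 for Mcpt2, 2.42 for Trav6n-6, -2.62 for Rnase12, -2.28 for Ppp1r3e, -1.60 for Rec8, -1.52 for Ang and -1.20 for Psmb5. Elsewhere it was 4.77 for Gm3375, 3.22 for Ighv1-85, 2.82 for Ighv1-12, 1.85 for Il2rb, 1.53 for Usp24, 1.01 for Ttc4 and 0.93 for Pars2. Among the P53 targets it was -4.09 for Cdkn1a, -3.99 for Phlda3, -3.53 for Zmat3, -3.29 for Eda2r, -2.49 for Bbc3, -1.63 for Ccng1 and -1.38 for Bax. The called genes among them were chosen by one side of this difference, which raises their number.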

How the results depend on the processing

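The count of called genes stayed between 16 and 33 under the alternatives tried, except without P53 KO replicate 3, so leaving out single libraries gave 16 to 1253 genes, 27 to 3044 transcripts, 2 to 115 list members, 3 to 5 genes shared with DKO against Chd8 KO and 9 to 19 differences between the effects. Over the 21 alternatives run for single genes (20 for Shbg and Ighv1-85, and none that leaves out a DKO or Chd8 KO library), no called gene changed direction, and 9 of the 24 stayed called: Trp53, Sat2, Shbg, Ccnb1ip1, Gm3375, Ppp1r3e, Psmb5, Trav6n-6 and Ighv1-85. Called transcripts numbered 22 with a mean of at least 5 TPM, 61 with quantile normalization, 25 in a fit on P53 KO and WT only, 2196 with library weights and 25 with Y-linked TPM as covariate, and library weights gave 8 genes shared with DKO against Chd8 KO. The fit on P53 KO and WT only split 5 higher and 21 lower, and 15 of these calls were among the 24. The cause of that split was not tested. Ang, Ear1, Il2rb, Nat8f1, Pars2, Rnase12, Rpgrip1, Ttc4 and Usp24 lost their call there, at adjusted p of 0.0719 (Il2rb) to 0.192 (Nat8f1). Their differences were unchanged, and only the spread, taken from P53 KO and WT alone, was another. Among uncalled genes, Chd8 turned to 0.023 with median-of-ratios scaling, 0.0339 with quantile normalization and 0.0348 with the run as a covariate or run 88 only, and ranged from -0.190 to 0.11 over single libraries left out. Kit turned to -0.0333 with library weights and ranged from -0.0869 to 0.117 over single libraries left out. Mdm2 turned to -0.0237 and Bbc3 to -0.0407 in both run settings, and Bbc3 to -0.107 with the most abundant transcript. Cdkn1a turned to 0.0244 with the Y-linked covariate and ranged from -0.494 to 0.19 over single libraries left out, and Pmaip1 from -0.571 to 0.18. With the replicate number as a block, 22 genes were called (21 of them among the 24) and 37 transcripts. Same-numbered P53 KO and WT libraries did not deviate together, with r of -0.0345, -0.0346 and 0.0171 for replicates 1, 2 and 3. These r run across genes, which are not independent replicates. Such low values give no sign of pairing by number but cannot exclude it. TPM carries no depth, so the counting error of low genes cannot be given.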
